A study of Mus musculus with 12 samples.

Results

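Cytochrome P450 enzymes were followed in the main olfactory epithelium (MOE) of mice through the 85 probe sets of the array that carry 1 single gene symbol beginning with Cyp and a digit. They stand for 85 genes among 35556 probe sets, of which 21789 have a single symbol, and pseudogenes were left out. All 85 genes were found in the RefSeq annotation of GRCm38.p6 (mm10), from which the positions below are taken. P450 enzymes are membrane-bound heme proteins that insert 1 oxygen atom into a substrate, with electrons passed on by P450 oxidoreductase or, in mitochondria, by ferredoxin. Families 1 to 3 mostly oxidise foreign compounds, family 4 hydroxylates fatty acids, and the higher families make or break down steroids, bile acids, vitamin D and retinoic acid. In the nose, sustentacular cells and Bowman glands are known for large amounts of these enzymes, which act on inhaled chemicals and odorants.

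RNA was taken from 6 ΔJ mice (3 males, 3 females; 1 at postnatal day 33, P33, the others at P30) and from 6 wild-type mice (2 males, 4 females; 2 at P33, the others at P30), with 1 Mouse Gene 1.0 ST array per mouse. ΔJ mice lack the J element, an enhancer of class I odorant receptor genes on chromosome 7, and the study uses the name for mice with the deletion on both alleles. The strain is given as C57BL/6 for all 12 mice. The deletion was made with CRISPR-Cas9 in B6C3F1 eggs, the mice descend from 1 founder line backcrossed to C57BL/6NCrSlc, for which the methods name heterozygotes of the second backcross for the array experiment without saying whether these were the parents of the mice profiled, and the wild-type mice are described as littermates. The deposited values are log2 signals, and the 75th percentile of each array was subtracted, so a level of 0 is the signal below which 75% of the probe sets of that array lie. The signal of a probe set also depends on its probes, so an order of levels is an order of signals and not of mRNA amounts. The mean level of the Y-linked gene *Kdm5d* in the 7 females, -3.72, served as the background gauge. It was the highest of the Y-linked genes measured, with *Uty* at -4.69 and *Eif2s3y* at -4.99 in the same females. A gauge at either of these levels would put more members above it.

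Over the whole array, 48 probe sets passed an adjusted p of 0.05 between genotypes (limma, Benjamini-Hochberg over 35556 probe sets), and 44 of them carried an odorant receptor symbol and were lower in ΔJ mice. Replicates 1 to 3 and 4 to 6 of each genotype formed 2 sets of arrays that differed in the spread of their values, with 3 ΔJ and 3 wild-type mice in each. The labels do not say what the sets share, and all 3 P33 mice were in the second. Markers of the tissue were high in both genotypes. *Omp*, a marker of mature olfactory neurons, averaged 3.98 in ΔJ mice and 3.95 in wild-type mice, and *Cbr2*, a carbonyl reductase of sustentacular cells, averaged 4.69 in ΔJ mice and 4.70 in wild-type mice. *Alb*, the serum albumin of hepatocytes, averaged -3.11 in ΔJ mice and -3.06 in wild-type mice. This is above the background gauge, as were all 7 hepatocyte genes measured. RNA came from whole tissue, so fewer cells of a type and less RNA per cell cannot be told apart.

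Promoter sequences are shown for 5 members that the results turn on, *Cyp2f2* and *Cyp1a2* as members with the highest signals, *Cyp1a1* as the neighbour of *Cyp1a2*, and *Cyp3a13* and *Cyp2j12* as members that differed most between mice. Each run is the 250 bases before a transcript start in RefSeq (GRCm38.p6), read 5′ to 3′ on the strand of the gene. Capitals mark TATAAA, a form of the TATA box, on that strand, and GCGTG, the core letters bound by the aryl hydrocarbon receptor, on either strand. The windows of *Cyp1a1* and *Cyp3a13* lie inside the annotated span of the gene, before a later start.
*Cyp2f2* (chr7:27119705-27119954, plus strand): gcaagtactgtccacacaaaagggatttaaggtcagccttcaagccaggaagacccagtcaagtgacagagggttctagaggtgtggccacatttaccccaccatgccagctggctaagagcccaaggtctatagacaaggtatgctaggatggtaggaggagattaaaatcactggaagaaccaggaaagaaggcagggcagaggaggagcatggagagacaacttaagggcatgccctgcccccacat
*Cyp1a2* (chr9:57683656-57683905, minus strand): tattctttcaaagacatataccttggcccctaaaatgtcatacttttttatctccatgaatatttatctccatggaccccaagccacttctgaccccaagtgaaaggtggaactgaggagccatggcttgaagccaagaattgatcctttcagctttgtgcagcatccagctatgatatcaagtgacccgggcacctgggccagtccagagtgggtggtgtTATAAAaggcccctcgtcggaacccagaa
*Cyp1a1* (chr9:57697363-57697612, plus strand): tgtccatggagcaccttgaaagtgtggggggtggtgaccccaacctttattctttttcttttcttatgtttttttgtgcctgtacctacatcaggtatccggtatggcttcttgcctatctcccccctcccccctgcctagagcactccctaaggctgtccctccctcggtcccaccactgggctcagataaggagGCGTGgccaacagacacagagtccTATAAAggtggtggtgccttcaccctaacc
*Cyp3a13* (chr5:137921620-137921869, minus strand): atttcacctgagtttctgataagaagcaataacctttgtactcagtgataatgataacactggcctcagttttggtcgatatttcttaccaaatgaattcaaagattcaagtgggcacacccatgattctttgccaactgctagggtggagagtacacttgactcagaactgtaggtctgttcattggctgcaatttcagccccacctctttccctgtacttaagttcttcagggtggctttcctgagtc
*Cyp2j12* (chr4:96141153-96141402, minus strand): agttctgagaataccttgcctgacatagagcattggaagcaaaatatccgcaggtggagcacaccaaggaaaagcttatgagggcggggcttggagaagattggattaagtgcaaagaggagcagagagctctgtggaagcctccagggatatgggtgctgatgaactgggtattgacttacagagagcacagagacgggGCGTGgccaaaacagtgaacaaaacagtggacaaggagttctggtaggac

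TATAAA began 29 bases before the start of *Cyp1a2* and 30 bases before that of *Cyp1a1*, and GCGTG began 54 bases before the start of *Cyp1a1* and 50 bases before that of *Cyp2j12*. Neither motif was in the windows of *Cyp2f2* and *Cyp3a13*. A promoter was listed for 64 members. TATAAA was in 23 of them (35.9%), against 14.3% of 27025 genes with a promoter of the same length. The count of 23 includes members such as *Cyp2d40* and *Cyp2j5*, for which no position of TATAAA before the start was listed. It may therefore cover either strand, unlike the capitals above. It also counts TATAAA anywhere in the window, as in *Cyp3a11* (234 bases before the start) and *Cyp2c65* (162 bases), and so is not a count of TATA boxes. GCGTG was in 15 of the 64 members (23.4%), against 30.9% of the 27025 genes. A match of letters is a description of the window and shows no binding.

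The highest P450 signals in the MOE were those of families 2 and 1. In wild-type mice, 62 of the 85 members had a mean level above the background gauge, against 83.9% of all probe sets, and 14 lay above the 75th percentile of their arrays. *Cyp2g1* (probe set 10551273, chr7:26808927-26821197), a P450 gene known for its expression in olfactory mucosa, came first among the members. Its level was 4.78, 4.92 and 5.00 in ΔJ mice and 4.88, 4.92 and 4.95 in wild-type mice (lowest, median and highest of 6). *Cyp2f2* (probe set 10551293, chr7:27119955-27133660), the naphthalene-activating enzyme of mouse airways, followed with 4.799, 4.83 and 4.88 in ΔJ mice and 4.74, 4.87 and 4.90 in wild-type mice. By wild-type mean they took place 17 and 26 of all 35556 probe sets. *Cyp2g1* was above *Cyp2f2* in 10 of 12 mice, so the order of these neighbours was not the same in every mouse. The highest value of any probe set on an array was 5.22 to 5.37, so both members lay near the top of the scale.

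*Cyp1a2* (probe set 10593981, chr9:57676937-57683655), which oxidises aromatic amines and caffeine, had the third-highest signal of the 85 members in all 6 wild-type mice. A probe set shared by *Cyp2a5* and *Cyp2a4*, which is no member because it has 2 symbols, was higher, with means of 4.72 in ΔJ mice and 4.65 in wild-type mice. The level of *Cyp1a2* was 3.66, 3.88 and 4.14 in ΔJ mice and 3.73, 3.94 and 4.18 in wild-type mice (lowest, median and highest). *Cyp1a1* (probe set 10585749), its neighbour and the classical target of the aryl hydrocarbon receptor, averaged 1.03 ± 0.20 in ΔJ mice and 0.89 ± 0.14 in wild-type mice (SD, n = 6 each). *Cyp1b1*, the third enzyme of the family, averaged -1.55 ± 0.15 in ΔJ mice and -1.50 ± 0.28 in wild-type mice. The ranges of the genotypes overlapped for all 3 genes of family 1.

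The next 7 signals spread over a range in which neighbours changed places between mice. *Cyp2e1*, which oxidises ethanol and small solvents, averaged 2.13 ± 0.18 in ΔJ mice and 2.17 ± 0.24 in wild-type mice, and ranked 4 or 5 among the members in the wild-type mice. *Cyp4a12b*, a fatty acid omega-hydroxylase, averaged 1.45 ± 0.49 in ΔJ mice and 1.77 ± 0.59 in wild-type mice, and its rank ran from 4 to 8. *Cyp2s1* averaged 1.31 ± 0.23 in ΔJ mice and 1.51 ± 0.08 in wild-type mice. *Cyp2j6*, of a subfamily of arachidonic acid epoxygenases, averaged 1.36 ± 0.12 in ΔJ mice and 1.32 ± 0.14 in wild-type mice. *Cyp2b10*, the target gene of the constitutive androstane receptor in liver, averaged 1.11 ± 0.21 in ΔJ mice and 1.09 ± 0.22 in wild-type mice. *Cyp4b1*, which activates furans and other pneumotoxins, averaged 0.81 ± 0.22 in ΔJ mice and 0.73 ± 0.15 in wild-type mice.

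**Figure D1:**
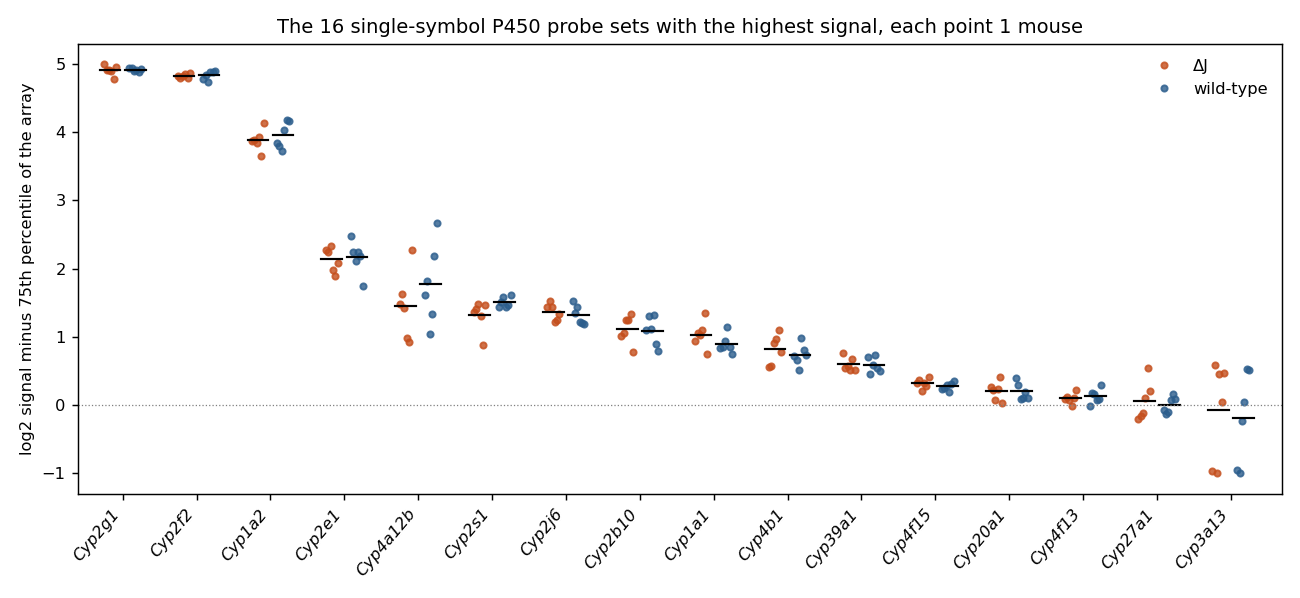
Levels of the 16 single-symbol P450 probe sets with the highest wild-type mean, ordered by that mean; the probe set shared by *Cyp2a5* and *Cyp2a4* is not drawn. The vertical axis is the log2 signal minus the 75th percentile of the array, each point is 1 mouse (6 ΔJ in orange, 6 wild-type in blue) and the bars are means. *Cyp2g1*, *Cyp2f2* and *Cyp1a2* lie between 3.66 and 5.00 in all 12 mice, and the points of the genotypes overlap for all 16.

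Among the members of sterol, bile acid, steroid hormone, retinoic acid and vitamin D metabolism, *Cyp39a1*, an oxysterol 7-alpha-hydroxylase, had the highest wild-type mean. It averaged 0.59 ± 0.10 in ΔJ mice and 0.58 ± 0.11 in wild-type mice. *Cyp27a1*, the mitochondrial sterol 27-hydroxylase, averaged 0.055 ± 0.29 in ΔJ mice and -0.0045 ± 0.12 in wild-type mice. *Cyp51*, the lanosterol demethylase of cholesterol synthesis, averaged -0.09 ± 0.10 in ΔJ mice and -0.21 ± 0.16 in wild-type mice. The 3 retinoic acid hydroxylases were led by *Cyp26b1*, at -1.11 ± 0.12 in ΔJ mice and -1.13 ± 0.16 in wild-type mice. All 5 members of steroid hormone synthesis lay between -3.17 and -2.57 in wild-type mice. *Cyp7a1*, the rate-limiting enzyme of bile acid synthesis in liver, was below the gauge at -4.81 in ΔJ mice and -4.85 in wild-type mice.

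The larger subfamilies differed in how many members lay above the gauge. Of 13 Cyp2c members, 4 were above it, led by *Cyp2c23* with a wild-type mean of -1.67. Of 6 Cyp3a members, *Cyp3a13* alone was above it, with a wild-type mean of -0.19. Of 9 Cyp2d members 7 were above it, led by *Cyp2d22* with a wild-type mean of -0.34, and of 5 Cyp4a members 3 were. All 8 Cyp4f members were above it, and the highest, *Cyp4f15* and *Cyp4f13*, had wild-type means of 0.27 and 0.12. *Cyp20a1*, the only member of its family, averaged 0.20 ± 0.14 in ΔJ mice and 0.19 ± 0.13 in wild-type mice. The lowest of all members was *Cyp2c38*, with a wild-type mean of -5.73. A signal under the gauge is not evidence that a gene is silent, and one above it is not evidence that a gene is expressed. Each probe set has its own background, which is unknown here.

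The first question was whether P450 genes differed between ΔJ and wild-type mice. None of the 85 members passed an adjusted p of 0.05 in limma, against 0.135% of all probe sets, and 1 had an unadjusted p under 0.05, against 3.33%. In 62 of 85 members the log2 fold change was below 0, against 60.2% of all probe sets, and after a median shift 40 of the 85 were above 0, against 55.8% of all probe sets. The median log2 fold change was -0.05 over the members and -0.03 over all probe sets. In none of the 85 did the 6 ΔJ mice lie apart from the 6 wild-type mice, against 0.301% of all probe sets.

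The 95% interval of the fold change lay within 1.3-fold in either direction for 44 members, against 61.7% of all probe sets. It was -0.12 to 0.11 on the log2 scale for *Cyp2g1*, -0.12 to 0.10 for *Cyp2f2* and -0.29 to 0.15 for *Cyp1a2*. The intervals of *Cyp4a12b* (-0.93 to 0.29) and *Cyp3a13* (-0.68 to 0.91) also hold differences beyond 1.3-fold, which this fit therefore does not exclude. Genotype was the only term of the fit, so differences between the sets of arrays widen these intervals. An example is *Cyp2c55* (-0.65 to 0.59), which differed by -0.96 between the sets. The count of 44 and the share of 61.7% therefore reflect array sets as well as the spread between mice. One member, *Cyp2b19*, a keratinocyte P450, differed by more than 1.3-fold in its mean, against 2.91% of all probe sets.

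**Figure D2:**
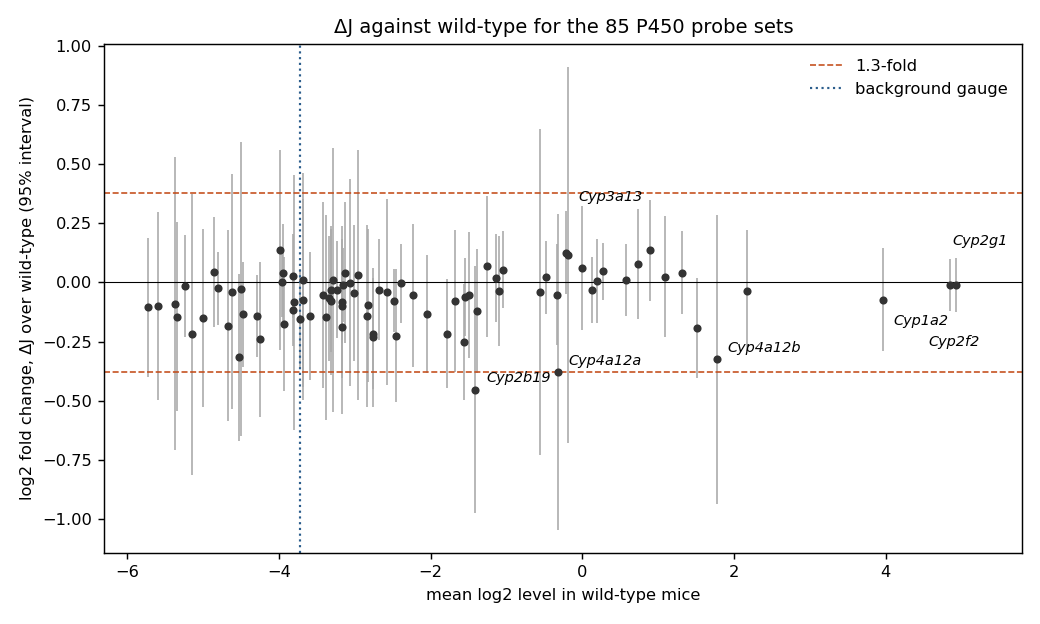
Log2 fold change of ΔJ over wild-type mice (vertical axis, points, with 95% intervals from limma) against the mean log2 level in 6 wild-type mice (horizontal axis) for the 85 P450 probe sets. Dashed lines mark 1.3-fold and the dotted line the background gauge of -3.72. Of the intervals, 44 lie inside the dashed lines, and only the point of *Cyp2b19* lies outside them. The fit behind the intervals had no term for array set.

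The member with the smallest p was *Cyp2w1* (probe set 10526931, chr5:139352616-139359607), known from tumours and fetal tissue. Its level was -2.12, -1.76 and -1.58 in ΔJ mice and -1.79, -1.50 and -1.37 in wild-type mice (lowest, median and highest), and the genotypes overlapped. The log2 fold change was -0.25 (SE 0.11, limma adjusted p = 0.993), and this was the member with an unadjusted p under 0.05. Members with the next smallest p were *Cyp2d40* (log2 fold change -0.22), the vitamin D 1-alpha-hydroxylase gene *Cyp27b1* (-0.22), *Cyp2s1* (-0.19), *Cyp2c39* (-0.32), *Cyp2b19* (-0.45), *Cyp2j5* (-0.14) and *Cyp2c37* (-0.23), each at a limma adjusted p of 0.993. *Cyp2c39* and *Cyp2j5* were below the gauge.

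*Cyp2b19* rested on few mice. Its level was -1.79, -2.13, -1.29, -1.83, -1.98 and -2.18 in ΔJ replicates 1 to 6 and -1.79, -0.44, -2.06, -1.31, -1.23 and -1.65 in wild-type replicates 1 to 6. Wild-type replicate 2 was the highest of all 12 mice, and the other 11 lay between -2.18 and -1.23. Leaving out 1 mouse at a time gave log2 fold changes of -0.58 to -0.26.

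The J element lies on chromosome 7, which also carries 13 members. A cluster of 11 of them, from *Cyp2s1* to *Cyp2t4*, lies 75.4 to 76.7 Mb from the deletion on one side and includes *Cyp2g1* and *Cyp2f2*. *Cyp2r1*, a vitamin D 25-hydroxylase, lies 12.0 Mb and *Cyp2e1* 38.3 Mb away on the other side. None of the 13 passed the test, and their log2 fold changes ran from -0.45 (*Cyp2b19*) to 0.03 (*Cyp2b9*), with a median of -0.04.

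By role, the median log2 fold change was -0.08 over 49 members of families 2 and 3, -0.06 over 15 of family 4, -0.05 over the 3 of family 1, 0.03 over 6 of bile acid and oxysterol metabolism, -0.08 over 5 of steroid hormone synthesis and -0.03 over the 3 of retinoic acid breakdown. It was -0.13 over the 2 of vitamin D metabolism. *Cyp51*, alone in cholesterol synthesis, had a log2 fold change of 0.13, and *Cyp20a1*, also alone in its role, one of 0.0069. None of the members of any role passed the test.

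The genes around the P450 enzymes were followed in lists. Of the electron donors and heme supply genes, 8 of 10 were measured under a single symbol and none passed the test. *Por*, the gene of P450 oxidoreductase, and *Fdxr* were not among the 8, so neither was tested here. The 8 included *Cyb5a* (2.91 in ΔJ mice, 2.73 in wild-type mice), *Cyb5r3* (3.54 in ΔJ mice, 3.81 in wild-type mice) and *Alas1*, the first enzyme of heme synthesis (2.96 in ΔJ mice, 3.02 in wild-type mice). *Pgrmc1*, a heme-binding partner of P450 enzymes, had an unadjusted p under 0.05 (log2 fold change 0.17, limma adjusted p = 0.993). Of 17 receptors and factors known to control P450 genes, 16 were measured and none passed. The aryl hydrocarbon receptor *Ahr* averaged 0.48 in ΔJ mice and 0.58 in wild-type mice, its partner *Arnt* 0.86 in ΔJ mice and 0.92 in wild-type mice, and the pregnane receptor *Nr1i2* -2.65 in ΔJ mice and -2.53 in wild-type mice. Of 26 conjugating and other biotransformation enzymes, 21 were measured and none passed, with *Gstm1* at 4.16 in ΔJ mice and 4.19 in wild-type mice. Of 10 retinoid handling genes, 9 were measured and none passed. *Stra6*, the retinol transporter, had an unadjusted p under 0.05 (log2 fold change -0.19, limma adjusted p = 0.993).

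Markers of the cells that could carry or dilute P450 mRNA had overlapping levels in the genotypes. Averaged over 7 measured sustentacular genes, ΔJ mice lay between 2.56 and 2.65 and wild-type mice between 2.51 and 2.64. Averaged over 8 mature neuron genes, ΔJ mice lay between 3.23 and 3.43 and wild-type mice between 3.26 and 3.40. Averaged over 8 Bowman gland genes, ΔJ mice lay between 1.49 and 1.69 and wild-type mice between 1.38 and 1.74. The mean of 7 blood, immune and endothelial genes spread more in ΔJ mice, between -1.07 and -0.46, than in wild-type mice, between -0.95 and -0.84. None of the genes on these lists, nor of those for respiratory epithelium, basal cells and hepatocytes, passed the test.

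A second question was whether members differed by sex, since several P450 genes do so in mouse liver. None of the 85 passed between 5 males and 7 females with genotype in the model (limma, 0.0141% of all probe sets passed), and 3 had an unadjusted p under 0.05, against 4.65%. *Cyp2c23*, an arachidonic acid epoxygenase of the kidney, had the smallest p. Its level was -1.54 to -1.38 in males, with values of -1.47, -1.53 and -1.47 in ΔJ males and -1.38 and -1.54 in wild-type males. In females it was -1.87, -2.01 and -2.17 in ΔJ mice and -1.71, -1.67, -1.83 and -1.91 in wild-type mice. The sexes did not overlap, as for 0.233% of all probe sets, and *Cyp2c23* was the only member for which this was so. The log2 difference was 0.43 (limma adjusted p = 0.503). *Cyp4b1* (log2 difference -0.24) and *Cyp2b10* (-0.24) were the others with an unadjusted p under 0.05, and *Cyp11b1* (0.27) and *Cyp2c29* (0.18) had the next smallest p, each of the 4 at a limma adjusted p of 0.896. Age was not in this model, and P33 mice were a larger part of the males than of the females. The levels of *Cyp2b10* were lowest in the 3 P33 mice, so its sex and age differences overlap. In P30 mice alone, 11 members had an unadjusted p under 0.05 in limma, against 11.2% of all probe sets, and none passed.

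The genotype by sex interaction passed for 0 of the 85 members and for 0 of all 35556 probe sets in limma. At an unadjusted p under 0.05 there were 3 members, against 3.40% of all probe sets. They were *Cyp2ab1* (interaction -0.37), *Cyp2d9* (-0.41) and *Cyp51* (0.33), each at an adjusted p of 1.00.

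Members also differed between the 2 sets of arrays. With genotype in the model, 47 of 85 passed between replicates 4 to 6 and replicates 1 to 3, against 42.2% of all probe sets. Of these, 7 were higher in the second set, against 10.4%, and 40 lower, against 31.8%. The median log2 difference was -0.22 over the members and -0.10 over all probe sets. After quantile normalization 14 were higher, against 15.6% of all probe sets, and 24 lower, against 19.6%, so the split between directions depended on the scaling for the members and for the whole array.

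Members lower in the second set were found on both sides of the background gauge, 28 among the 62 above it, against 27.7% of all probe sets above it, and 12 among the 23 others, against 53% of all other probe sets. *Cyp2c55* averaged -4.999 in the second set and -4.04 in the first (limma adjusted p = 1.9e-05), and *Cyp2d13* averaged -3.71 in the second set and -2.84 in the first (adjusted p = 1.0e-05). Among the 14 members above the 75th percentile the median difference was 0.0040, with 1 higher (*Cyp4b1*, 0.24) and 2 lower (*Cyp2e1*, -0.26, and *Cyp2j6*, -0.22). *Cyp27a1* was higher by 0.33 and *Cyp26b1* by 0.19.

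**Figure D3:**
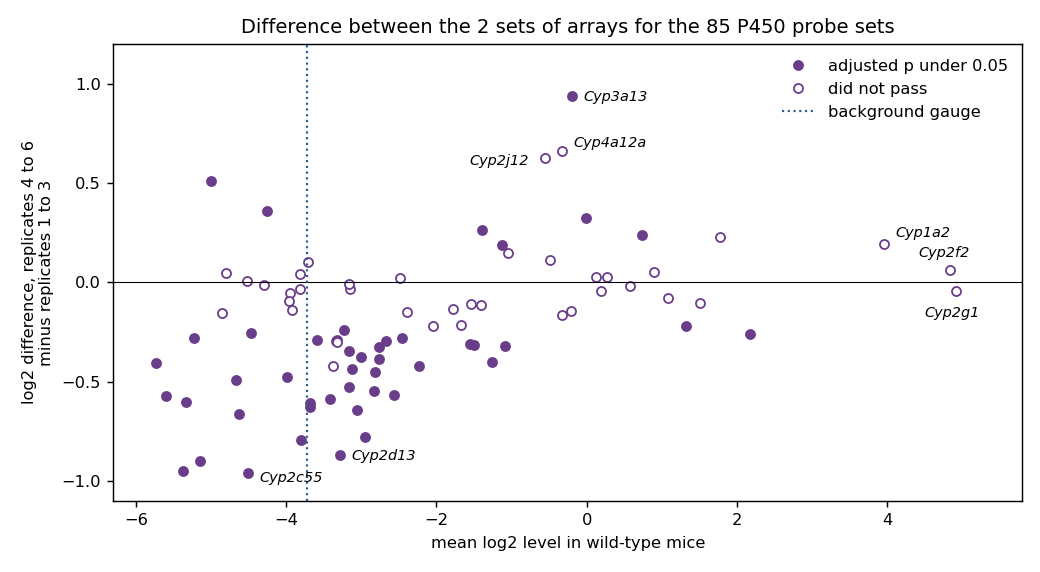
Difference of replicates 4 to 6 minus replicates 1 to 3 (vertical axis, log2) against the mean log2 level in 6 wild-type mice (horizontal axis) for the 85 P450 probe sets. Filled points passed an adjusted p of 0.05 (7 higher, 40 lower), open points did not, and the dotted line is the background gauge of -3.72.

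The largest difference in the positive direction was that of *Cyp3a13* (probe set 10534945, chr5:137892933-137925610), a Cyp3a gene of intestine and other tissues. Its level was -0.98, 0.58, -1.001, 0.45, 0.03 and 0.47 in ΔJ replicates 1 to 6 and -0.96, -1.01, -0.24, 0.04, 0.52 and 0.51 in wild-type replicates 1 to 6. ΔJ replicates 1 and 3 and wild-type replicates 1 and 2 lay between -1.01 and -0.96, and the other 8 lay between -0.24 and 0.58. The difference between sets was 0.94 (limma adjusted p = 0.014), and ΔJ replicate 2 of the first set was the highest of all 12 mice.

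Of all probe sets, the one most like *Cyp3a13* over the 12 mice was *Azgp1*, a zinc-binding glycoprotein gene of fat mobilisation, with a Pearson r of 0.99, given as a description. It lies 55911 bp away on chromosome 5, with 2 genes annotated between, 1 of them protein coding. *Azgp1* was at -0.38, 0.94, -0.53, 0.99, 0.75 and 1.05 in ΔJ replicates 1 to 6 and at -0.45, -0.48, 0.38, 0.66, 1.16 and 1.296 in wild-type replicates 1 to 6. The same 4 mice were lowest. *Gjc3*, the connexin gene between them, was at -1.82, -1.45, -1.85, -1.62, -2.36 and -1.04 in ΔJ replicates 1 to 6 and at -1.995, -1.79, -1.52, -1.73, -1.39 and -1.36 in wild-type replicates 1 to 6, and its lowest value was in ΔJ replicate 5.

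The residual SD after genotype and array set, a measure of the spread between mice, had a median of 0.15 over the members and 0.14 over all probe sets. It ran from 0.039 for *Cyp2f2*, which lay near the top of the scale where small differences show less, to 0.55 for *Cyp4a12b*. The 5 members with the highest values were *Cyp4a12b*, *Cyp2j12* (0.53), *Cyp3a13* (0.51), *Cyp4a12a* (0.49) and *Cyp2b19* (0.48).

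*Cyp4a12b* (chr4:115411624-115439034) and *Cyp4a12a* (chr4:115299046-115332815) are near-identical genes of the same cluster that make the vasoconstrictor 20-HETE in the mouse kidney, where androgens raise them. Their signals cannot be fully assigned to one or the other. *Cyp4a12b* was at 1.48, 1.62, 1.42, 0.98, 0.93 and 2.27 in ΔJ replicates 1 to 6 and at 1.62, 1.81, 1.04, 1.33, 2.19 and 2.66 in wild-type replicates 1 to 6. *Cyp4a12a* was at -0.86, -0.76, -1.03, -0.95, -0.93 and 0.32 in ΔJ replicates 1 to 6 and at -0.66, -0.58, -1.18, -0.43, 0.22 and 0.68 in wild-type replicates 1 to 6. For both, the 3 highest mice were ΔJ replicate 6 and wild-type replicates 5 and 6, which are the 3 mice taken at P33. Between males and females the log2 difference was 0.25 for *Cyp4a12b* and 0.17 for *Cyp4a12a*, and neither passed the test (limma adjusted p = 0.907 and 0.930).

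This led to a comparison of P33 with P30, chosen after the values were seen, with genotype and array set in the model. None of the 85 members passed in limma, and 2 of all probe sets did (0.00562%). At an unadjusted p under 0.05 there were 17 members, against 14.6%. The 3 P33 mice did not overlap the 9 P30 mice in 7 members, against 6.62% of all probe sets. The log2 difference was 1.26 (SE 0.19, adjusted p = 0.140) for *Cyp4a12b* and 1.11 (SE 0.18, adjusted p = 0.140) for *Cyp4a12a*. *Cyp2b10* was at 0.77 in the ΔJ mouse and 0.89 and 0.78 in the wild-type mice of P33, against 1.01 to 1.34 at P30, a log2 difference of -0.51 (adjusted p = 0.140). *Cyp1a2* was at 4.14 in the ΔJ mouse and 4.18 and 4.17 in the wild-type mice of P33, against 3.66 to 4.04 at P30 (log2 difference 0.28, adjusted p = 0.241), and *Cyp1a1* had a log2 difference of -0.39 (adjusted p = 0.183). Age, litter and day of dissection cannot be told apart in these 3 mice, and sex was not in this model. In the second set of arrays every male was at P33 and every P30 mouse was female. With sex added to the limma model, 11 members had an unadjusted p under 0.05, against 7.96% of all probe sets, and none passed. Without wild-type replicate 4, 3 members passed, and 802 of all probe sets did (2.26%). The limma adjusted p was then 0.026 for *Cyp4a12b* and 0.024 for *Cyp4a12a*. In that fit every P30 mouse of the second set was a ΔJ female, and every wild-type mouse of that set was at P33. Age and genotype therefore overlap within the second set, and these calls do not show an effect of age alone.

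*Cyp2j12* had a different pattern. Its level was 0.34 in ΔJ replicate 6 and 0.84 in wild-type replicate 6, against -1.13 to -0.51 in the other 10 mice, among them wild-type replicate 5 of P33 at -0.82. *Cyp2j6*, another of the 6 Cyp2j members, was at 1.33 in ΔJ replicate 6 and 1.19 in wild-type replicate 6, within the range of the other mice for the ΔJ mouse and the lowest of all 12 for the wild-type mouse. Probe sets most like *Cyp4a12b* over the 12 mice were *Spint1*, a protease inhibitor gene (r = 0.97), *Ephx1*, the microsomal epoxide hydrolase that acts on products of P450 enzymes (r = 0.95), and *Ppif* (r = 0.94). They were picked as the closest of the whole array, and the r values are given as a description. *Cyp4a12a* had other closest probe sets, led by *Pigs* (r = 0.97), and a link between any of these genes was not tested.

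**Figure D4:**
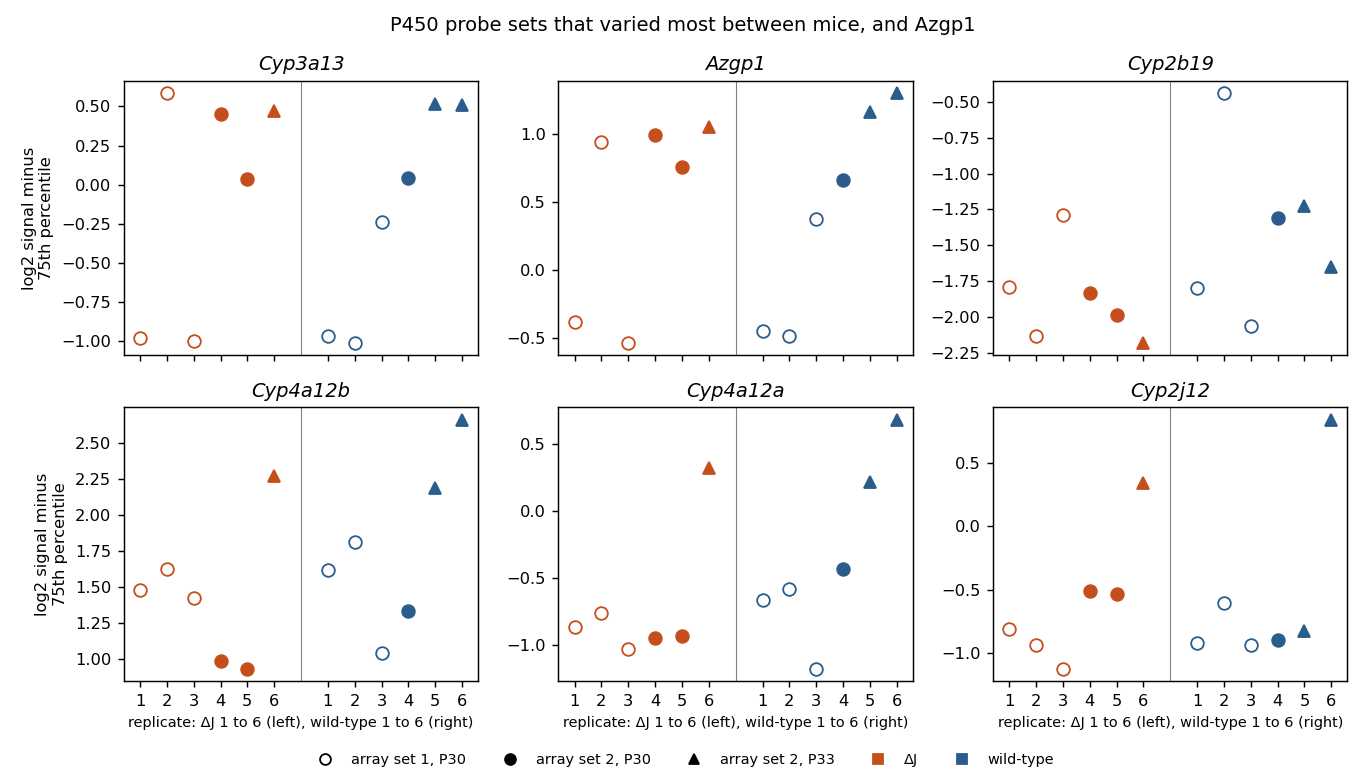
Log2 signal minus the 75th percentile of the array (vertical axes) for each mouse, with ΔJ replicates 1 to 6 left and wild-type replicates 1 to 6 right, for the 5 P450 probe sets with the largest spread between mice and *Azgp1*. Open circles are the first set of arrays, filled circles P30 mice and triangles P33 mice of the second; *Cyp4a12b* and *Cyp4a12a* are highest in the 3 triangles, and *Cyp3a13* and *Azgp1* are lowest in the same 4 mice.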

How the data were processed

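RNA of the MOE of 6 ΔJ and 6 wild-type mice was measured on 12 arrays. For each array, log2 signals of 35556 probe sets were deposited by the authors. Affymetrix Expression Console is named in the submitters' processing notes; its version and settings were not given in the sources used here. Each array's 75th percentile was subtracted, as in the study's methods. The main fit used limma (version 3.58.1, lmFit and eBayes; R version 4.3.3) on every probe set, had no term but genotype, and was adjusted by Benjamini-Hochberg over the whole array. Sex, array set and age were tested with genotype in the model. Genes were named from the platform annotation and matched to RefSeq by gene ID. The members, lists and tests were chosen with earlier results of these data known. Genes named are the 15 with the highest wild-type level, the 8 and 5 with the smallest p for genotype and sex, the 5 with the largest spread, textbook members, and the first genes of the lists. *Azgp1*, *Gjc3*, probe sets of like pattern, members of the P33 comparison, *Cyp2ab1*, *Cyp2b9*, *Cyp2c38*, *Cyp2c55*, *Cyp2d9*, *Cyp2d13*, *Cyp2d22*, *Cyp2r1* and *Cyp2t4* were chosen after their values were seen.

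Nothing in the labels says that mice of the same replicate number share a litter, and p-values measure the spread between these mice. The numbers were checked for pairing. The deviations of same-numbered mice correlated at 0.365, 0.294, 0.419, 0.441, 0.185 and 0.385, and at -0.144 to 0.078 once array set means were removed. The fit with the replicate block was therefore computed. Alternatives left out each mouse in turn or changed the scaling, covariates, mice or filter. The genotype fit was tested on simulated data with independent noise for each array and no differences of array set, sex or age. The other fits were not simulated. No 2 arrays held identical values, and precision is limited by the number of arrays.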

Additional observations from a re-analysis of the deposited data

Results flagged for a closer look

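In 3 of 64 checks of the 6 mice of a genotype, over 32 named members, 1 mouse stood apart from the nearest of the others by more than Dixon's 95% critical value, where chance gives about 1 in 20. That rate does not hold for members chosen for their large spread in these mice, among them *Cyp4a12a* and *Cyp2j12*. *Cyp2s1* was lowest in ΔJ replicate 5 at 0.874, and the nearest ΔJ mouse was at 1.301. *Cyp4a12a* was highest in ΔJ replicate 6 at 0.321, and the nearest ΔJ mouse was at -0.763. *Cyp2j12* was highest in wild-type replicate 6 at 0.837, and the nearest wild-type mouse was at -0.604. Replicate 6 of both genotypes was taken at P33.

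P450 probe sets with several symbols were outside the members, and signals above the 75th percentile or near it appeared in 2 of them. The probe set shared by *Cyp2a5* and *Cyp2a4*, coumarin and testosterone hydroxylases, averaged 4.72 in ΔJ mice and 4.65 in wild-type mice. The probe set shared by *Cyp4v3* and the unrelated *Klkb1* averaged -0.106 in ΔJ mice and -0.157 in wild-type mice. Both genes of each pair share the value, and neither probe set passed between genotypes (limma adjusted p = 0.993 for both).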

How the results depend on the processing

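No member passed between genotypes under any alternative run. The number at an unadjusted p under 0.05, 1 as reported, was 10 with the replicate block, 6 with array set as a block, 3 in replicates 1 to 3 and 8 in replicates 4 to 6. The share of all probe sets at this level was 3.33% as reported, 7.9% with the replicate block, 8.04% with array set as a block, 3.92% in replicates 1 to 3 and 7.15% in replicates 4 to 6. In the same order, the share of the members was 1.18%, 11.8%, 7.06%, 3.53% and 9.41%. Each of these members was lower in ΔJ mice. With the replicate block, 2043 of all probe sets were lower and 767 higher at this level. The number of members was 2 with sex and 3 with age as a covariate, 2 in P30 mice, 3 without the shift and 2 after quantile normalization, where the share of all probe sets was 2.19% to 5.23%. It was 0 to 5 when 1 mouse was left out; it was 0 without ΔJ replicate 4 (2.32% of all probe sets) and 5 without ΔJ replicate 3 (3.96%). The replicate block changed no call.

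Signs turned where the log2 fold change was near 0. *Cyp2g1* was 0.013 in replicates 1 to 3, 0.0033 without the shift and 0.033 after a median shift, and -0.027 to 0.018 when 1 mouse was left out. *Cyp2f2* was 0.025 in replicates 1 to 3, 0.00078 with age, 0.0050 in P30 mice, 0.0016 without the shift, 0.031 after a median shift and 0.0086 after quantile normalization, and -0.031 to 0.00061 when 1 mouse was left out. *Cyp1a2* was 0.071 in replicates 1 to 3. *Cyp2e1* was 0.0060 in replicates 1 to 3 and 0.0069 after a median shift, and -0.12 to 0.026 when 1 mouse was left out. The median shift moved the median of all probe sets to 0.015, against -0.03 with the 75th percentile. The P33 comparison gave 0 to 3 calls when 1 mouse was left out, and the 3 came without wild-type replicate 4. In that fit, age and genotype overlap within the second set of arrays. With 1 mouse left out, *Cyp4a12b* ran from 1.14 to 1.40 and *Cyp4a12a* from 1.01 to 1.28. Signals under the gauge and those near the top of the scale limit what small differences can show.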
